A study of Mus musculus with 18 samples.

Results

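PU.1 occupancy was compared between 12 and 24 h after C/EBPα was activated in pre-B cells, which turns them into macrophage-like cells. The unit of comparison was a 200-bp bin of chromosomes 1 to 19 of the mm9 mouse genome, and a bin was kept when it held 10 or more PU.1 reads in either library after both had been brought to 10461718 reads. This left 107082 bins, or 0.866% of the 12361703 bins examined, and touching bins formed 63416 separate regions, 32466 of which were 1 bin long. The cells at both times were C10 cells, a derivative of the mouse pre-B line HAFTL that carries C/EBPα fused to the estrogen receptor hormone-binding domain (C/EBPαER) and GFP, a fusion that β-estradiol moves into the nucleus. They had been induced with 100 nM β-estradiol, IL-3 and CSF-1 were each supplied at 10 nM, and chromatin was precipitated with antibody sc-352 against PU.1. The 2 libraries belong to a series of 18, with 5 for PU.1, 8 for C/EBPα and 5 for C/EBPβ, each a single library of its factor and time point. All rest on 1 cell line, no input or control library was used here, and the study's methods give another unit for the β-estradiol concentration than the sample labels.

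PU.1 is an Ets-family transcription factor of myeloid cells and B cells, and its gene is named Sfpi1 in the annotation used here. It binds purine-rich DNA around a GAGGAA core, opens chromatin at enhancers, and is present at a lower level in B-lineage cells than in macrophages. At many sites it binds beside partner factors, among them C/EBP proteins, AP-1 (Fos and Jun dimers) and interferon regulatory factors (IRF). C/EBPα drives granulocyte and macrophage differentiation and converts pre-B cells into macrophage-like cells when it is expressed in them.

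The sequences below are those of the bins with the 3 largest rises from 12 to 24 h and the 3 largest falls among bins with 40 or more reads summed over both libraries, followed by the bins with most reads among those higher at 24 h that hold both a PU.1 and an AP-1 consensus. Each is named by the gene with the nearest start site. Capitals mark the PU.1 core GAGGAA and the AP-1 consensus TGANTCA, on either strand. The core was present in 41.3% of the bins compared and in 18.2% of all bins of the genome. It was about as frequent in bins 2-fold higher at 12 h (38.2%) as in bins 2-fold higher at 24 h (39.0%). Sequence and positions are those of the NCBIM37 (mm9) assembly.
Axl, chr7:26570001-26570200, plus strand: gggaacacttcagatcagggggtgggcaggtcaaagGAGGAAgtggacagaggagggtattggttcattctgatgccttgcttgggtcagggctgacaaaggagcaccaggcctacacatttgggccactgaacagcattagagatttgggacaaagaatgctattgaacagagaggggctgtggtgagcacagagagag
Tgif1, chr17:71182001-71182200, plus strand: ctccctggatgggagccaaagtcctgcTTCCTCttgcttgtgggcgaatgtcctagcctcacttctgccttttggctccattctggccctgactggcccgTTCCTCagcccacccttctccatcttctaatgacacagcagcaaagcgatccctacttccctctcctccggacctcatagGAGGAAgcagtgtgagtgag
Spag7, chr11:70481001-70481200, plus strand: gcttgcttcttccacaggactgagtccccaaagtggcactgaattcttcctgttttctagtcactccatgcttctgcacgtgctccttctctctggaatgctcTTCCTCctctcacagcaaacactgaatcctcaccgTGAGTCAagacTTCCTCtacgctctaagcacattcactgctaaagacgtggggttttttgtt
Ank2, chr3:127072401-127072600, plus strand: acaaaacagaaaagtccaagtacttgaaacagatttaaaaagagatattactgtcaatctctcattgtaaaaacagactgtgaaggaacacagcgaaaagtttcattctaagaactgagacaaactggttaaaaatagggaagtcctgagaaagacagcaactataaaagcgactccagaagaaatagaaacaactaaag
Fndc3a, chr14:73000201-73000400, plus strand: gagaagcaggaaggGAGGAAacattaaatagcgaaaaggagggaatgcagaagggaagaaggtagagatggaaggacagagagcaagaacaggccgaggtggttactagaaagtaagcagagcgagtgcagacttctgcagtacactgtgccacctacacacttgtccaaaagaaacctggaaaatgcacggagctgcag
AF064781, chr4:57875601-57875800, plus strand: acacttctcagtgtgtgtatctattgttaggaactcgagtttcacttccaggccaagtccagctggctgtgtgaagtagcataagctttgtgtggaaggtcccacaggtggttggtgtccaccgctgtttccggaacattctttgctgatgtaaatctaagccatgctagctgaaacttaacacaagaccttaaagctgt
Nudt16l1, chr16:4915801-4916000, plus strand: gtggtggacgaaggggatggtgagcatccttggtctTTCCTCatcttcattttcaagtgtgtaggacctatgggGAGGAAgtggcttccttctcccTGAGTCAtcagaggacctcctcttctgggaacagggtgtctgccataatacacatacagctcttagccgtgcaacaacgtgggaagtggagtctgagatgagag
Prss22, chr17:24135601-24135800, plus strand: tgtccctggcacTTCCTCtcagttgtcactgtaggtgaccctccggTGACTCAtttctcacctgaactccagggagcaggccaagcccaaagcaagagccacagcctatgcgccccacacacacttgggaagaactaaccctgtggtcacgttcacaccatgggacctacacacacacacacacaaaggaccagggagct
The Axl bin held 1 core and the Tgif1 bin 3, while the Spag7 bin held 2 cores and 1 AP-1 consensus, which lay beside 1 of them. Of the 3 falls, the Fndc3a bin held 1 core, and the Ank2 and AF064781 bins held neither sequence.

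Most PU.1 bins held fewer reads at 24 h than at 12 h. The median bin had 15 reads at 12 h and 12 at 24 h, and the median log2 ratio of 24 over 12 h, taken on reads + 1, was -0.52 with a range from -1.81 at the 5th percentile to 0.81 at the 95th. Reads were more numerous at 12 h in 75.7% of bins and at 24 h in 21.5%. With 1 library per time point no test between the times was possible, and a bin was called when it differed by 2-fold or more. By this call 27278 bins (25.5%) were higher at 12 h and 3822 (3.57%) were higher at 24 h. The remaining 75982 bins are called unchanged, which means only that they did not pass 2-fold.

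The direction of the shift was shared across the genome. Per chromosome the median ratio ran from -0.56 on chromosome 10 to -0.47 on chromosome 11, and the share of bins higher at 24 h from 2.95% on chromosome 3 to 4.3% on chromosome 12. The bins held 24.0% of all reads at 12 h and 17.5% at 24 h, so that a larger part of the 24 h library lay outside them. When the 24 h counts were scaled so that the median ratio was 0, 10811 bins (10.1%) were higher at 12 h and 10029 (9.37%) at 24 h, an almost even split in place of one dominated by loss. Scaled on reads far from any of these bins, the split widened to 31618 against 2809. That widening follows from the larger part of the 24 h library outside the bins and is no separate check. A smaller fraction of cells with PU.1 at a site, less PU.1 per cell and a lower yield of the 24 h immunoprecipitation cannot be told apart in these single bulk libraries. Bins were therefore compared with one another.

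**Figure D1:**
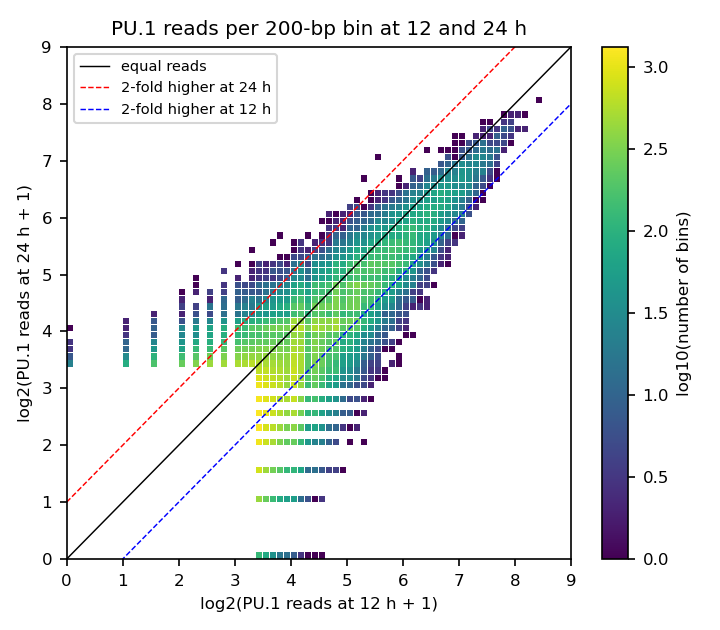
Numbers of PU.1 reads per 200-bp bin at 12 h (horizontal axis) and 24 h (vertical axis), both as log2 of reads + 1 at equal depth, with the color giving log10 of the number of bins. The solid line marks equal reads and the dashed lines mark 2-fold. The bulk of the bins lies below the solid line, and the median log2 ratio was -0.52.

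The minimum of 10 reads shaped which bins could be called. It was met in both libraries by 58864 bins (55%), at 12 h alone by 38135 (35.6%) and at 24 h alone by 10083 (9.42%). Bins kept through only 1 library had to be higher there, and of the bins that met it in both, 5288 were higher at 12 h and 287 at 24 h, with a median log2 ratio of -0.34. The 12993 bins whose higher count was exactly 10 had a median log2 ratio of -0.46, and the 17046 bins left out with a higher count of 9 had one of -0.52. Calls were more frequent among sparse bins: 46.1% of bins with 10 to 19 summed reads were higher at 12 h and 8.7% at 24 h, against 7.16% and 0.212% of the 11312 bins with 80 or more.

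The 8 bins with the largest rise from 12 to 24 h lay nearest to Axl, Tgif1, Spag7, Jun, Csf1, Src, Aqp9 and Cmklr1. The bin 3.6 kb inside Axl, which encodes a receptor tyrosine kinase used by macrophages to engulf dying cells, held 7 reads at 12 h and 36 at 24 h, a log2 ratio of 2.21. Over the 5 PU.1 libraries it held 2.91, 4.68, 6.69, 34.4 and 27.4 normalised reads at 0, 3, 12, 24 and 48 h, that is, reads scaled to a library of 10000000. The bin was thus close to empty until 12 h and remained occupied at 48 h, a time point that the choice of bins did not use.

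A rise between 12 and 24 h, from a higher starting level than at Axl, was seen upstream of Csf1, which encodes the macrophage growth factor CSF-1. A bin at chr3:107584401-107584600, 21.1 kb from the start site, held 10 reads at 12 h and 35 at 24 h, and 10.2, 10.9, 9.56, 33.5 and 45.1 normalised reads over the 5 times. The bin 31.8 kb upstream of Jun, a subunit of AP-1, held 12 and 45 reads, and 5.81, 7.79, 11.5, 43.0 and 41.2 normalised reads over the course. Both bins were therefore at their low level at 0, 3 and 12 h and at their high level at 24 and 48 h.

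Near Tgif1, which encodes a homeodomain corepressor of TGF-β signalling, the bin held 9 and 42 reads, with 44.1 normalised reads at 48 h. The bin 43.7 kb from the start of Src, a tyrosine kinase of integrin signalling, held 10 and 35 reads and kept 32.3 normalised reads at 48 h. The intronic bin of Aqp9, a channel for water and glycerol, held 9 and 31 reads, and 45.1 normalised reads at 48 h. The bins near Spag7 (9 and 37 reads) and Cmklr1, the receptor of the chemoattractant chemerin (10 and 34 reads), were lower again at 48 h, with 19.6 and 12.7 normalised reads. In all 8 bins the share of reads that came from 12 h was between 16.3% and 22.7%. The 95% Clopper-Pearson interval of that share, which covers counting error alone, was widest at Aqp9, from 10.8 to 38.5%. These counts also chose the bins, so the intervals are a description.

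The 2 strongest bins higher at 24 h with both consensus sequences rose over several steps. The bin nearest Nudt16l1, which lies in an intron of Mgrn1, held 40 reads at 12 h and 100 at 24 h, and its 5 PU.1 libraries gave 1.45, 9.35, 38.2, 95.6 and 144 normalised reads. The bin 0.6 kb upstream of Prss22, a serine protease gene, held 33 and 74 reads, and 4.36, 9.35, 31.5, 70.7 and 78.4 normalised reads over the course. At both bins each later library was higher than the one before it.

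The 8 bins with the largest falls lay nearest to Ank2, Fndc3a, AF064781, Scin, Grhpr, Prim2, Baz2a and Mkl1. The bin in an intron of Ank2, an ankyrin linking membrane proteins to the cytoskeleton, held 39 reads at 12 h and 3 at 24 h, a log2 ratio of -3.32. In the order 0, 3, 12, 24 and 48 h it held 21.8, 21.8, 37.3, 2.87 and 9.8 normalised reads. The bin in an intron of Fndc3a held 36 and 4 reads, and the course 14.5, 10.9, 34.4, 3.82 and 11.8. Both were highest at 12 h and occupied before induction.

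A second pattern among these falls was a steady loss from the pre-B state. The bin shared by AF064781 and Akap2 held 88.6, 79.5, 38.2, 4.78 and 4.9 normalised reads over the 5 times, and the bin 11.2 kb upstream of Grhpr, which encodes an enzyme of glyoxylate metabolism, held 74.1, 70.1, 39.2, 5.74 and 0.98. The bin 0.3 kb from the start of Mkl1, an actin-regulated coactivator of serum response factor, fell from 50 to 8 reads and held 59.6 normalised reads at 0 h against 1.96 at 48 h. At these 3 bins the 0 h library was the highest and the 24 and 48 h libraries the lowest. Of the other large falls, Scin, an actin-severing protein gene, went from 40 to 5 reads, Prim2, a DNA primase subunit gene, from 39 to 6, and Baz2a, a gene of ribosomal DNA silencing, from 39 to 6. The Baz2a bin had the fewest reads of the 8 at 0 h, with 8.72 normalised reads.

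**Figure D2:**
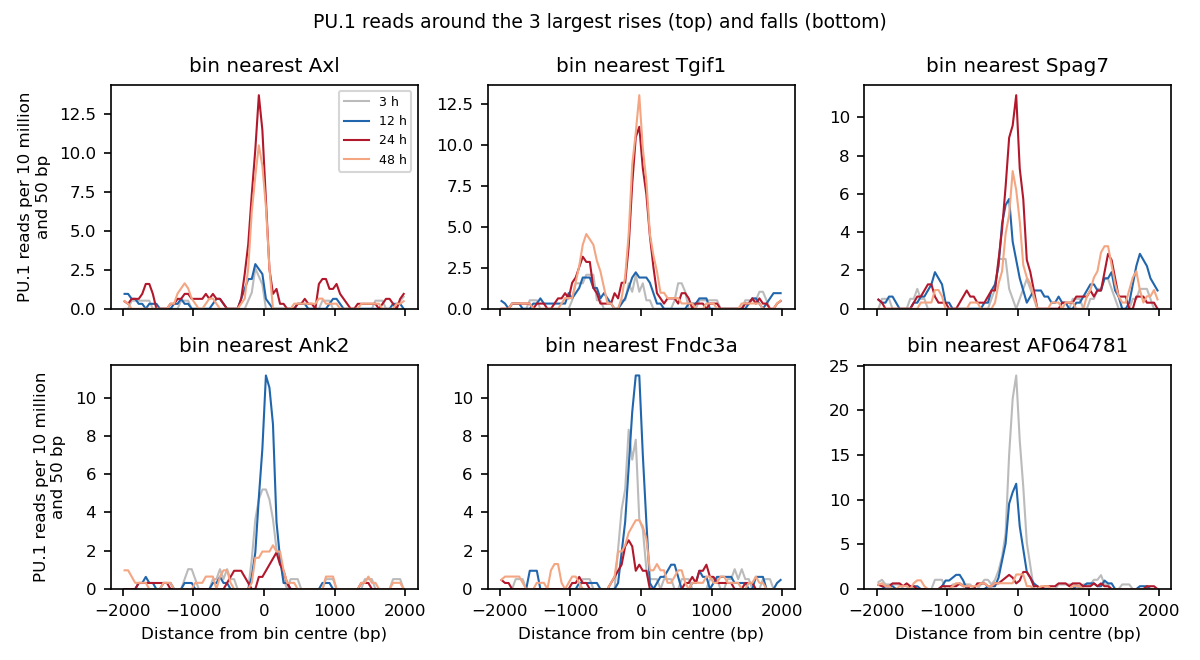
Normalised PU.1 reads (reads in a library of 10000000) per 50 bp (vertical axes, running mean over 3 windows) by distance from the bin centre in bp (horizontal axis) in the 3, 12, 24 and 48 h libraries, for the 3 largest rises (top) and the 3 largest falls (bottom). The Axl, Tgif1 and Spag7 peaks are tallest at 24 or 48 h, while the Ank2 and Fndc3a peaks are tallest at 12 h and the AF064781 peak at 3 h.

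The PU.1 libraries at 0, 3 and 48 h took no part in choosing the bins, and were averaged over all bins of each class. Bins higher at 24 h held on average 4.58 normalised reads at 0 h, 5.25 at 3 h and 11.3 at 48 h. In bins higher at 12 h the averages were 11.2 at 0 h, 13.5 at 3 h and 8.23 at 48 h. Unchanged bins went from 18.6 at 0 h and 21.2 at 3 h to 20.1 at 48 h. In bins higher at 24 h the 48 h average was thus above those of 0 and 3 h, and in bins higher at 12 h it was below them. With 10 normalised reads as the mark of occupancy, 36.2% of bins higher at 12 h and 11.7% of bins higher at 24 h were occupied in the uninduced pre-B cells, beside 49.8% of unchanged bins and 45% of all bins compared.

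The 48 h library exceeded the 3 h library in 70.3% of bins higher at 24 h (95% interval 68.8 to 71.7%) and in 31.3% of bins higher at 12 h (30.7 to 31.8%), beside 44.3% of all bins. The ratio of mean reads at 48 h to those at 3 h was 1.10 on the log2 scale in the first class and -0.71 in the second. Intervals here and below are Clopper-Pearson intervals over bins, cover counting error alone, and treat neighbouring bins as independent, which they are not. By the same mark, 30.6% of bins higher at 24 h were occupied at 48 h and not at 3 h, against 5.85% of bins higher at 12 h and 12.7% of all bins compared. The opposite state, occupied at 3 h and not at 48 h, held for 6.15%, 24.5% and 17.1%. A further 57.2%, 51.1% and 35.5% reached the mark at neither time. The mark stands for fewer raw reads in the 3 h library (6414863 reads) than in the 48 h library (10204581 reads).

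C/EBP reads were few in most bins of all 3 classes. In bins higher at 24 h the average C/EBPα signal was 4.04 normalised reads at 12 h and 4.09 at 24 h, while it went from 4.95 to 3.61 in bins higher at 12 h and from 6.97 to 5.5 in unchanged bins. C/EBPα reached 10 normalised reads at 12 h in 12.2% of bins higher at 12 h, 17.4% of unchanged bins and 8.35% of bins higher at 24 h. In the same order the shares were 1.12%, 1.87% and 1.52% at 0 h, and 5.72%, 10.8% and 7.14% at 24 h. The C/EBPα libraries had 8651671 reads at 0 h, 5832857 at 12 h and 7406493 at 24 h. The mark thus stands for fewest raw reads at 12 h, and the shares compare classes within a time better than times. C/EBPβ averaged 2.9 and 4.11 normalised reads in bins higher at 24 h, 2.87 and 3.53 in bins higher at 12 h, and 3.98 and 5.4 in unchanged bins, so that its averages were higher at 24 h in each class. The median bin of every class held at most 3.43 normalised reads in the C/EBPα and 3.54 in the C/EBPβ libraries of these 2 times, and the C/EBPβ libraries had only 2824293 and 3040876 reads, so that single bins could not be read in them.

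**Figure D3:**
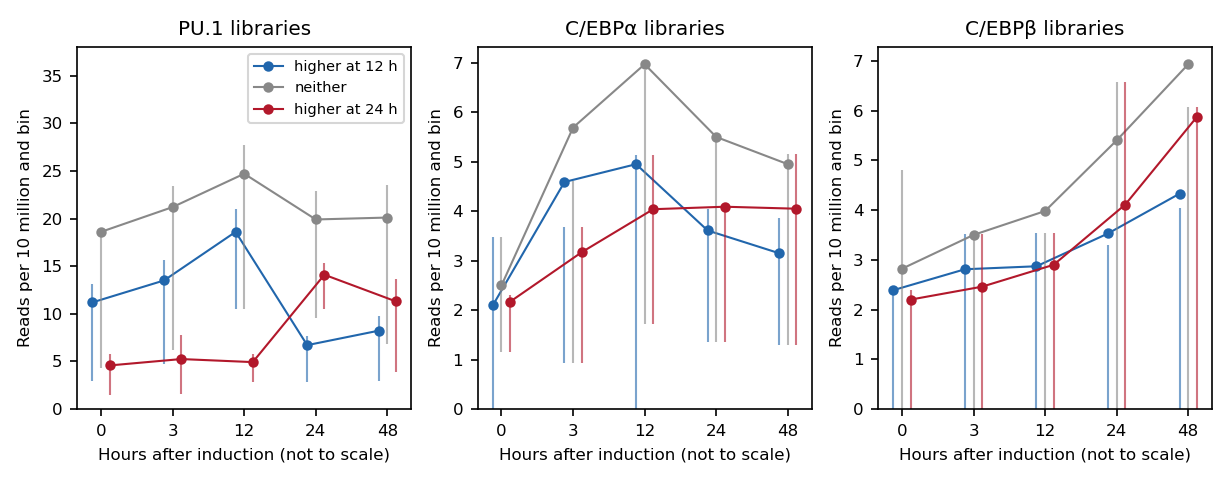
Mean normalised reads per bin (points) with the middle 50% of bins (vertical lines) in the PU.1, C/EBPα and C/EBPβ libraries at 0, 3, 12, 24 and 48 h, for bins higher at 12 h, unchanged bins and bins higher at 24 h. The 12 and 24 h PU.1 points were used to choose the classes. In the PU.1 panel the bins higher at 24 h are at 4.58 at 0 h, 5.25 at 3 h and 11.3 at 48 h.

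The adjoining intervals, which share a library with this one, were counted by the same rule. From 3 to 12 h, 16333 of 63114 bins (25.9%) were higher at 12 h and 4563 (7.23%) at 3 h. From 24 to 48 h, 11640 of 84202 bins (13.8%) were higher at 24 h and 11396 (13.5%) at 48 h. These counts carry the scaling of each library to equal depth, and no interval but that from 12 to 24 h was centred. The order of 24 and 48 h turned at a common depth of 6414863 reads, with 5936 bins (12.2%) higher at 24 h and 7234 (14.9%) at 48 h. The bins compared held 17.4% of reads at 0 h, 20% at 3 h and 18% at 48 h. The 24.0% at 12 h cannot be set against these, because 12 h reads chose the bins.

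The motif shares of the bins differed between the classes, most for AP-1 among the motifs more frequent at 24 h. The AP-1 consensus TGANTCA was present in 12.9% of bins higher at 24 h (11.8 to 14%), 8.2% of unchanged bins and 5.61% of bins higher at 12 h (5.34 to 5.89%), beside 5.96% of all 200-bp bins of the genome. Divided more finely, its share went from 5.95% of bins with a log2 ratio of -2 or less to 13.6% of those with 1.5 or more. Among bins with a GC content of 45 to 55%, the shares were 13.2% and 5.23%, and among bins over 1 kb from a start site 13.4% and 6.25%. The AP-1 share was higher in bins higher at 24 h than in bins higher at 12 h under each alternative tried, with the smallest gap, 7.47% against 5.98%, at a minimum of 5 reads.

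Bins higher at 24 h that held the AP-1 consensus kept more PU.1 at 48 h. The 492 such bins averaged 15.5 normalised reads at 24 h and 17.8 at 48 h, whereas the 3330 without it averaged 13.8 and 10.3. The medians fell in both sets, from 12.4 to 11.8 with the consensus and from 11.5 to 6.86 without it. Before 24 h both sets were low, with 3.99 and 4.67 at 0 h. C/EBPα averaged 4.47 and 4.04 in the same sets at 24 h, and 4.84 and 3.93 at 48 h. C/EBPβ averaged 7.41 and 5.64 at 48 h. Bins of the other classes were not split in this way. The split was made on sequence alone, and the 48 h values took no part in it.

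The PU.1 consensus GAGGAAGT was present in 14.3% of all bins compared and in 1.2% of the genome. It was found in 12.6% of bins higher at 12 h (12.2 to 13%), 15.2% of unchanged bins and 10.4% of bins higher at 24 h (9.46 to 11.4%). The order of the first and last class turned with depth: among bins with 40 or more summed reads the shares were 14.6% of 4002 bins and 26.5% of 185 bins (20.3 to 33.5%). Both consensus sequences together stood in 63 bins higher at 24 h (1.65%), in 178 bins higher at 12 h (0.653%) and in 0.0646% of the genome.

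The ETS-IRF, IRF, EBF1 and GC box sequences were more frequent in bins higher at 12 h. The ETS-IRF composite GGAANNGAA, which PU.1 binds together with IRF4 or IRF8, was found in 12.7% of bins higher at 12 h and 8.58% of bins higher at 24 h, against 6.4% of the genome. The consensus TCCCNNGGG of EBF1, a determinant of B-cell identity, was found in 4.84% and 3.35%, against 1.87%, and the GC box GGGCGG of promoters in 11.1% and 4.68%, against 2.01%. Among bins over 1 kb from a start site the GC box gap was smaller, at 5.1% and 2.97%. There EBF1 stood at 4.52% and 3.15% and ETS-IRF at 13.9% and 8.72%. The C/EBP consensus TTGCNNAA was at or below its genome share of 9.28% in both classes, at 8.84% and 8.32%. The IRF motif GAAANNGAA stood at 8.16% and 5.68%, against 7.83%, the RUNX motif TGTGGTT at 5.02% and 5.29%, against 4.73%, and the E-box CAGGTG at 12.3% and 13.4%, against 12%. Motifs were searched on both strands within the 200 bases of a bin, some of them share letters, and a match is not a bound site.

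**Figure D4:**
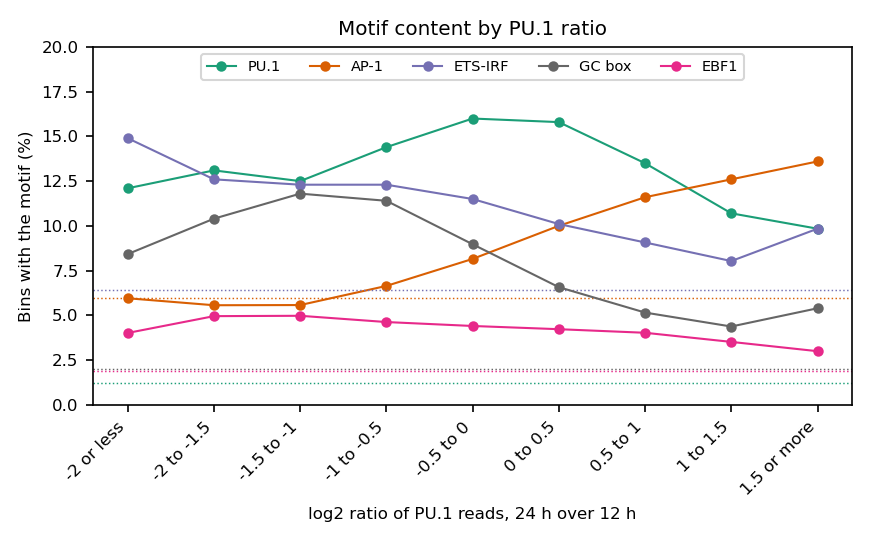
Share of bins (%) holding the PU.1, AP-1, ETS-IRF, GC box or EBF1 sequence (vertical axis) by log2 ratio of PU.1 reads at 24 over 12 h (horizontal axis), with the share in all 200-bp bins of the genome as dotted lines of the same color. The AP-1 share climbs from 5.95% to 13.6% from left to right and the PU.1 share is highest, at 16%, between -0.5 and 0.

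Bins higher at 12 h outnumbered those higher at 24 h at every distance from a start site, by most at promoters. Bins within 1 kb of the start of a protein-coding gene made up 20.2% of bins higher at 12 h, 17.9% of unchanged bins and 11.1% of bins higher at 24 h. They were 18.3% of all bins compared and 2.36% of the genome. Of the 19548 promoter bins, 28.3% were higher at 12 h and 2.18% at 24 h, beside 25.5% and 3.57% of all bins compared. For the 28110 bins at 1 to 10 kb these shares were 22.9% and 4.07%, and for the 59424 bins beyond 10 kb they were 25.8% and 3.79%. Exons, introns and intergenic sequence held 7.93%, 50.1% and 42.0% of bins higher at 24 h, and 10.8%, 44.1% and 45.1% of bins higher at 12 h.

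Base composition moved with the ratio at both ends of the scale. Of bins under 40% GC, 41.1% were higher at 12 h and 1.08% at 24 h, and of bins with 60% GC or more, 31.9% and 1.22%. Of bins with 50 to 60% GC, 20.1% and 5.31% were. The median GC content was 47.0% in bins higher at 12 h, 49.0% in unchanged bins and 50.5% in bins higher at 24 h, against 42.0% in the genome. Its part in the calls was not tested, and within 45 to 55% GC, 9172 bins (18%) were higher at 12 h and 2719 (5.34%) at 24 h.

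Each bin was given only to the gene with the nearest start site, if that lay within 50 kb. Genes were described by their leading bin, the one of their own bins with most reads summed over both times. A stronger bin nearer another gene was thus not counted. Of 14062 genes with such a bin, 2867 (20.4%) had a leading bin higher at 12 h and 191 (1.36%) one higher at 24 h, with a median log2 ratio of -0.51. Of 187 genes from 6 lists of B-lineage and myeloid genes, 17 were higher at 12 h and 2 at 24 h. Centred on the median of all bins the split of these genes turned, to 2 and 12, beside 923 and 701 of all genes. Calls were rarer in bins with many reads, as given above, and no difference between these genes and the rest was tested.

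B-lineage genes gave 7 of the 17. Their list had a leading bin higher at 12 h for 7 of 29 genes (24.1%) and at 24 h for none, beside 20.4% and 1.36% of all genes, so that the share was near that of all genes. The median was -0.61, beside -0.51 for all genes, and with all bins of a gene summed the order turned, at -0.50 against -0.52. The 7 were Cr2, Cd22, Tcf4, Cd79a, Tcf3, Cd72 and Cd37, named here after their values were seen. At Cd79a, a signalling chain of the B-cell receptor, the bin at the start of the gene held 118 and 49 reads, and 102, 96.7, 113, 46.8 and 36.3 normalised reads over the 5 times. At Cr2, a complement receptor of B cells, the bin 25.2 kb upstream held 40 and 9 reads, and at Cd22, an inhibitory receptor of B cells, the exonic bin held 24 and 8. The Cd79a bin was high through 12 h and low at 24 and 48 h. From 24 to 48 h normalised reads also fell at Tcf3 (16.2 to 8.82), Cd72 (21.0 to 16.7) and Cd37 (38.2 to 29.4). They rose at Cr2 (8.6 to 21.6), Tcf4 (16.2 to 31.4) and Cd22 (7.65 to 9.8).

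Other B-lineage sites differed less. The leading bin of Pax5, the factor that maintains B-cell identity, lay in an intron and held 129 and 93 reads, a log2 ratio of -0.47, and 254, 162, 123, 88.9 and 70.6 normalised reads over the course. The kinase gene Lyn (132 and 116 reads), the repressor gene Bach2 (134 and 108), Ets1 (114 and 86) and Bcl11a (118 and 77) had ratios from -0.61 to -0.18. All 5 were below 0 and within 2-fold, and over the list 26 genes were below 0 and 3 above it. These 3, named after their values were seen, were the adaptor gene Blnk with 85 and 107 reads and the transcription factor genes Myb with 44 and 49 and Ikzf1 with 81 and 86. The 0 h library was the highest of the 5 at Pax5 and Bcl11a, and the 3 h library at Bach2, Ets1 and Lyn. From 24 to 48 h Pax5 fell further, but the others did not. Bcl11a went from 73.6 to 126 normalised reads, Bach2 from 103 to 133, Lyn from 111 to 125 and Ets1 from 82.2 to 83.3.

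Of 37 genes of phagocyte receptors, integrins and cytokine receptors, 1 (2.7%) had a leading bin higher at 12 h and 2 (5.41%) at 24 h, beside 20.4% and 1.36% of all genes, and the median was -0.34. The one higher at 12 h was Csf2rb, the shared chain of the GM-CSF and IL-3 receptors, with 55 and 27 reads. The 2 higher at 24 h were C3ar1, the receptor of complement C3a, and Clec4e, the C-type lectin Mincle, again named after their values were seen. The bin at the start of C3ar1 held 16 and 42 reads, and 1.45, 6.24, 15.3, 40.1 and 43.1 normalised reads over the course, and the bin at the start of Clec4e 16 and 34 reads, and 1.45, 9.35, 15.3, 32.5 and 59.8. Both went from near 0 before induction to their highest level at 48 h. Of the 8 bins of C3ar1, however, 4 were higher at 12 h and 1 at 24 h, and of the 4 bins of Clec4e, 0 and 3.

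Among the strongest receptor sites, all 5 with most reads stayed within 2-fold, 3 of them with close to equal reads at both times. The bin at the start of Tlr4, the receptor of bacterial endotoxin, held 162 and 157 reads, and that of Cd300lf, an inhibitory receptor of myeloid cells, 147 and 145, so that neither moved with the median. Sirpa, the receptor of the antiphagocytic signal CD47, held 154 and 138 reads in its leading bin and had risen earlier, with 20.3 normalised reads at 0 h and 147 at 12 h. Ifngr2, a chain of the interferon-γ receptor, held 178 and 114, a log2 ratio of -0.64, and Csf1r, described next, had one of -0.81. At Tyrobp, the adaptor DAP12, the bin held 116 and 131 reads and at Tgfbr2, a TGF-β receptor chain, 70 and 43.

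The bins nearest to Csf1r, the receptor of CSF-1, included calls in both directions. Its leading bin, in an intron 2.8 kb from the start site, held 186 reads at 12 h and 106 at 24 h, a log2 ratio of -0.81, and 37.8, 76.4, 178, 101 and 60.8 normalised reads over the course. Yet 5 of the 28 bins within 50 kb whose nearest start site was that of Csf1r were higher at 24 h and 2 at 12 h, beside 3.64% and 24.6% of all bins within 50 kb of a gene. Csf1 had 5 of 20 bins higher at 24 h and none at 12 h, while its leading bin held 80 reads at both times. Over the genome, only 287 of the 3822 bins higher at 24 h met the minimum in both libraries. The others were kept through the 24 h library, where they had to be higher. The median bin higher at 24 h held 4 reads at 12 h and 12 at 24 h. At Jun, the leading bin held 60 and 36 reads, in contrast to the rise of the bin 31.8 kb upstream.

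Of 25 genes of myeloid transcription factors, 2 had a leading bin higher at 12 h, Klf4 with 15 and 5 reads and Cebpe with 35 and 13, and none at 24 h, beside 20.4% and 1.36% of all genes. The median was -0.40. The bin 0.8 kb inside Sfpi1, the PU.1 gene itself, held 184 and 129 reads, and 110, 93.5, 176, 123 and 105 normalised reads over the 5 times. Its C/EBPα signal was 223 normalised reads at 12 h and 158 at 24 h. The leading bin 48.2 kb from the start of Runx1 held 167 and 145 reads. Nr4a1, a nuclear receptor gene of monocytes, held 113 and 91 reads and had risen earlier, from 14.5 normalised reads at 0 h to 108 at 12 h. Egr1, an immediate-early factor gene, held 149 and 106, the homeobox gene Hhex 130 and 100, Cebpb 41 and 37, Nfe2 52 and 36, and Fos 55 and 57.

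Genes of lysosomal and antimicrobial proteins had 2 of 32 leading bins higher at 12 h and none at 24 h, beside 20.4% and 1.36% of all genes, with a median of -0.34. The 2 were Lyz2, a lysozyme gene, with 37 and 17 reads, and Gpnmb, a lysosomal glycoprotein gene, with 22 and 8. In 6 of the 32 genes the ratio was above 0, highest at Ctsa, a lysosomal carboxypeptidase gene named after its value was seen, with 31 and 61 reads. Of the 8 bins of Ctsa, 4 were higher at 12 h and 2 at 24 h. Ctsd, the protease cathepsin D, was another of the 6. Its bin 10.2 kb upstream held 102 and 146 reads, a log2 ratio of 0.51. Over the course this bin held 8.72, 15.6, 97.5, 140 and 163 normalised reads. Its C/EBPα signal was 22.3 normalised reads at 12 h and 43.2 at 24 h. The oxidase subunit genes Ncf4 (198 and 122 reads) and Cyba (174 and 142), the glucuronidase gene Gusb (164 and 131), Lyz1 (177 and 112), the cathepsin gene Ctss (146 and 120) and the elastase gene Mmp12 (110 and 95) all had ratios below 0.

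Cytokine and NF-κB genes had 3 of 33 leading bins higher at 12 h, those of Ccl4, Ccl5 and Rela, and none at 24 h, beside the same shares of all genes, 20.4% and 1.36%, with a median of -0.33. At Ccl4, a chemokine gene, the bin held 34 and 11 reads, at Ccl5, another chemokine gene, 40 and 18, and at Rela, an NF-κB subunit gene, 30 and 14. The strongest bins of the list belonged to Cxcr4, a chemokine receptor gene (208 and 167 reads), Nfkb1 (202 and 133), Il1b (172 and 118), the feedback inhibitor gene Tnfaip3 (149 and 108) and Ccl2 (141 and 126). The Il1b bin, 2.4 kb upstream, was highest at 48 h, with 220 normalised reads. The costimulatory receptor gene Cd40 had 44 and 23 reads in its leading bin.

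Of 32 genes of the cytoskeleton, migration and kinase signalling, Rac2 (83 and 38 reads) and Fes (135 and 64) were higher at 12 h and none at 24 h, beside 20.4% and 1.36% of all genes, with a median of -0.38. Pik3ap1, an adaptor of phosphoinositide 3-kinase, held 195 and 137 reads, the kinase gene Prkcd 169 and 146, the adaptor gene Lcp2 141 and 125, the actin regulator gene Wipf1 164 and 93 and the phosphatase gene Inpp5d 143 and 113. With all bins of a gene counted, the share higher at 24 h was 6.03% for the receptor list, 5.01% for cytokines, 4.2% for myeloid factors, 3.9% for lysosomal genes, 2.81% for cytoskeletal genes and 1.46% for the B-lineage list, beside 3.64% of all bins near genes. The share higher at 12 h was lowest for the lysosomal list, at 17.4%, and highest for the B-lineage list, at 24.3%, beside 24.6%. Centring on the median of all bins moves every gene alike, and placed the medians of the other 5 lists at 0.13 to 0.21 and that of the B-lineage list at -0.07.

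**Figure D5:**
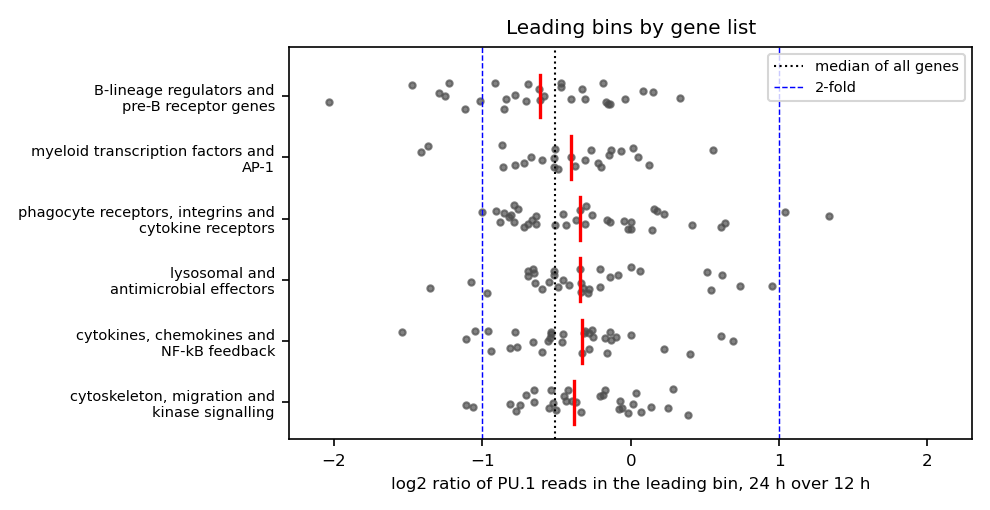
Log2 ratio of PU.1 reads at 24 over 12 h in the leading bin of each gene (points; horizontal axis), by gene list (vertical axis), with the list's median as a red line, the median of all genes as a dotted line and 2-fold as dashed lines. The B-lineage median of -0.61 lies below that of all genes and the other 5 medians lie above it. With all bins of a gene summed the B-lineage median lies above that of all genes, at -0.50 against -0.52.

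Marker genes of both lineages had bins among those compared. All 6 B-lineage markers examined (Cd79a, Cd79b, Pax5, Ebf1, Vpreb1 and Igll1) and all 7 macrophage markers (Csf1r, Itgam, Cd14, Lyz2, Emr1, Tyrobp and Fcgr1) had a bin that met the minimum. That minimum could be met at either time, and 14062 protein-coding genes had such a bin within 50 kb. Of 64 bins of the B-lineage markers, 17 were higher at 12 h and 1 at 24 h, and of 103 bins of the macrophage markers, 12 and 7. As shares these were 26.6% and 1.56%, and 11.7% and 6.8%, beside 24.6% and 3.64% of all bins near genes. Of the 7 macrophage marker bins higher at 24 h, 5 lay nearest Csf1r and 1 each nearest Itgam and Tyrobp, so that the 6.8% rests mainly on 1 gene. In the leading bins the order was the other way, with a median of -0.53 for the B-lineage and -0.79 for the macrophage markers and 1 gene of each set higher at 12 h. No expression was measured in these libraries.

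Called bins were also counted as separate regions. Of 14062 genes with a bin, 2313 had at least 1 region higher at 24 h and 100 had at least 3. At least 1 region higher at 12 h lay near 9345 genes and at least 3 near 1953 genes. The genes named here were chosen after their values were seen. Myh9, a non-muscle myosin gene, had 7 regions higher at 24 h and 3 at 12 h among 44 bins, and Ggta1 had 6 and 6 among 47. Adora2b, an adenosine receptor gene, had 5 at 24 h and none at 12 h among 11 bins. Csf1 and the phosphatase gene Ptpre had 4 each at 24 h and none at 12 h, among 20 and 18 bins. Of all bins near genes, 3.64% were higher at 24 h and 24.6% at 12 h. Akap13 had the most regions higher at 12 h, with 13 among 43 bins, and such counts grow with the number of bins near a gene. Sfi1 had 22 regions at 24 h, but its 234 bins held a mean of 17 to 26.8 normalised reads in all 18 libraries, C/EBP libraries before induction included. Without them 27276 bins were higher at 12 h and 3792 at 24 h.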

How the data were processed

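The series holds 18 libraries of chromatin immunoprecipitation and sequencing from C10 cells. The deposited files list 1 aligned read per line with its mm9 position and strand, apart from 1 line without a position at PU.1 0 h. Per the study's methods the authors aligned reads without mismatches, with Eland or Bowtie, and filtered out identical and non-unique tags, and the submitters' processing notes also name HOMER. The values are raw read counts per bin, computed here from the deposited reads. The PU.1 reads were 36 bases long, with 10461718 reads at 12 h and 11094617 at 24 h on chromosomes 1 to 19.

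Of reads sharing position and strand 1 was kept (none repeated in the PU.1 or C/EBPβ files, and up to 2.525% in the C/EBPα files). The 5′ ends were moved 75 bp inward, the 24 h library was thinned at random to 10461718 reads, and reads were counted in 200-bp bins. Calls were made at 2-fold on reads + 1. Other libraries were scaled to 10000000 reads. Motif shares used the NCBIM37 genome and 11968110 bins free of undetermined bases; genes were protein-coding genes of GENCODE vM1. Named were the 5 genes of each list with most summed reads in their leading bin, the 8 largest rises and 8 largest falls among bins with 40 or more summed reads and a gene within 50 kb (1 per gene), and genes whose regions the study shows. The latter were also given by their leading bin, which need not be the region shown there. At Tgfbr2 (3.1 kb) and Tlr4 (0.1 kb) it lay nearer the start site than the study's region. The Cebpb bin lay 12.9 kb from the start site. 1 marker gene is not reported here. The bins, lists and rules were chosen with earlier results of these data known. Scripts ran in Python 3.11.15 with numpy 2.4.6, scipy 1.17.1 and pandas 2.3.3. The call was tried on simulated counts with changes larger than 2-fold in well-covered bins only. False calls among unchanged or sparse bins were not counted.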

Additional observations from a re-analysis of the deposited data

How the results depend on the processing

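The order of the classes at 48 against 3 h held under all alternatives run, and the direction of the median under all but centring. Scaling on reads far from the bins was no separate check of that direction, because a larger part of the 24 h library lay outside the bins. The log2 median was 0 by construction when centred, -0.53 with all reads scaled in place of thinning (-0.533) or with a shift of 124 bp (-0.531), -0.655 scaled on reads far from the bins, -0.415 with a minimum of 5 reads or a pseudocount of 5, -0.436 with a sum of 20 reads, -0.459 in 400-bp bins and -0.334 within 45 to 55% GC. The number of bins compared was 42383 with a minimum of 20 reads, 345372 with 5 and 50943 within that GC range. The number higher at 12 h was 10811 when centred, 8225 with a minimum of 20, 104022 with 5, 13629 with a sum of 20, 8651 at 3-fold, 13614 with the pseudocount and 9172 within the GC range. Higher at 24 h were 10029 bins when centred, 510 and 59284 with minimums of 20 and 5, 1245 with the sum, 6149 in 400-bp bins, 1113 at 3-fold, 1850 by a counting interval off an even split and 1509 with the pseudocount. For 48 above 3 h, bins higher at 12 h gave 30.7% with all reads and with the longer shift, 30.1% centred, 24.0% and 38.4% with minimums of 20 and 5, 27.5% with the sum, 32.2% in 400-bp bins, 30.2% with 4 times the density of the surrounding 10 kb, 29.0% at 3-fold, 27.8% by interval, 28.1% with the pseudocount and 30.4% within the GC range. Bins higher at 24 h gave, in the same order without the shift, centring and GC range, 72.5, 88.0, 49.4, 79.5, 63.8, 72.9, 72, 78.2 and 74.0%. The PU.1 consensus in bins higher at 12 h stood at 13.9 and 9.47% with minimums of 20 and 5, 13.4% with the sum, 16.1% in 400-bp bins, 13.1% with the shift, 14.5% by local density, 15.8% by interval, 13% with the pseudocount and 14.4% within the GC range. In bins higher at 24 h it was 12.6% centred, 19.4 and 3.86% with minimums of 20 and 5, 14% with the sum, 11.5% with bins offset by 100 bp, the shift or the pseudocount, 12.1% by local density and 14.5% by interval. The AP-1 consensus was at 18.8 and 7.47% with those minimums, 15.3% with the sum, 17.9% in 400-bp bins, 15.6% by interval and 14% with the pseudocount in bins higher at 24 h, and at 5.98% (minimum of 5), 10.8% (400-bp bins), 5.96% (interval) and 5.23% (GC range) in bins higher at 12 h. Of the list genes, 8 were higher at 12 h and 1 at 24 h with all bins of a gene summed, and 2 and 12 when centred. Centred, the list medians were 0.127 for myeloid factors, 0.196 for receptors, 0.198 for lysosomal genes, 0.207 for cytokines and 0.154 for cytoskeletal genes. With all bins of a gene summed, the B-lineage median was -0.501, above that of all genes at -0.522. Between 24 and 48 h, at a common depth of 6414863 reads, 5936 bins were higher at 24 h and 7234 at 48 h. Apart from centring and the choice of counted bins, the causes were not tested. The GC range, leaving out Sfi1, leaving out bins with 10 or more normalised reads in all 18 libraries, the AP-1 shares and the common depth were chosen after seeing the data. No paired analysis was possible because each time point had 1 library, and for the same reason none could be left out and no error between replicates is known. The minimum of 10 reads limits what can be said of weak sites.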
